A study of Mus musculus with 23 samples.

Results

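Undiluted acetophenone was compared with same-litter controls in 6 of the 23 RNA-seq libraries of the series: 3 libraries from odor-exposed mice, described in the labels as litters 1 to 3 of the acetophenone group, and 3 control libraries of the same litters. Each library holds mRNA from homogenised mouse olfactory epithelium, brought down with ribosomes by an antibody to ribosomal protein S6 in its phosphorylated form (pS6). All mice were of the strain c57BL/6 at postnatal day 21, with no genetic modification named. The odor group was exposed for 1 h to acetophenone, an aromatic ketone with a floral smell, at 100% and the control group to a control that the labels describe no further. The labels do not give the number or sex of the animals in a library, and litter is the only unit they name, so a replicate here is a litter. The other 17 libraries come from 1% acetophenone, from the predator odorant TMT (trimethylthiazoline) at 2 doses and from controls of other litters, and they enter only the last comparisons.

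Olfactory sensory neurons line the nasal cavity, and each expresses a single odorant receptor gene (Olfr symbols) from a very large family. Odor binding to the receptor activates a G protein and adenylyl cyclase, opens cyclic nucleotide-gated channels and depolarises the cell. Neuronal firing leads to phosphorylation of S6, a protein of the small ribosomal subunit, and an antibody to the phosphorylated form brings down ribosomes with the mRNA they carry. Receptor mRNAs that are higher in such a pull-down after an odor mark the neurons in which S6 was phosphorylated. Immediate early genes such as Fos and Egr1, and slower activity-dependent genes of olfactory neurons such as Pcdh10 and Kirrel2, are transcribed when neurons fire. More cells with a given receptor in the pull-down and more receptor mRNA per cell cannot be told apart in such bulk libraries.

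The 6 libraries held 2187268 to 3115656 uniquely aligned counts, of which 5997 to 21347 fell on the 1102 odorant receptors listed. Libraries resembled each other by litter more than by treatment: the correlation of log2 CPM (counts scaled to library size) across genes was 0.933 to 0.942 within a litter and 0.695 to 0.854 between litters. Litter 1 carries title codes of another series than litters 2 and 3, so litter and code series cannot be told apart. Of all genes, 7 had at least 50 counts in both libraries of litter 1 and 0 counts in the 4 others, among them the immediate early genes Junb (264 and 240 counts) and Jund (311 and 302). Their median GC content was 62.6%, against 49.5% over all genes tested. The control library of litter 1 stood apart in a further way: it held 16552 counts of growth hormone (Gh) and 9027 of prolactin (Prl), both made by the anterior pituitary, while the 5 other libraries held 1 to 23 and 0 to 6. All 9 anterior pituitary markers examined, a list drawn up after this was seen, were highest in that library. Their summed level was 1.63 to 10450 CPM in the controls and 3.51 to 44.7 CPM in the odor libraries. The part of this material in the results was not tested, and counts of changed genes are given below also without litter 1.

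In the paired comparison, 11 genes were higher after undiluted acetophenone and none was lower, out of 11564 genes tested (edgeR quasi-likelihood test with litter as a block, Benjamini-Hochberg adjusted p at most 0.05). These are 0.0951% and 0% of the genes tested. Of the 11, 10 were odorant receptors and the other was Pcdh10, protocadherin 10, a cell adhesion molecule of axons. At an unadjusted p of at most 0.05, 398 genes (3.44%) were higher and 212 (1.83%) lower. DESeq2 with the litter block gave 35 genes higher, 21 of them receptors, and 1 lower, Dlk1. Dlk1 is among the 9 pituitary markers, with 544, 9 and 2 counts in the controls and 20, 0 and 0 with odor, highest in the litter 1 control. Without litter 1, 28 genes were higher, 19 of them receptors, with the 11 genes among them. Without litter 3 only Olfr745 and Pcdh10 remained, and without litter 2 only these and Olfr19 of the 11. The length of the list thus depends on the litters taken: it was longer without litter 1 and shorter without litter 2 or litter 3.

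**Figure D1:**
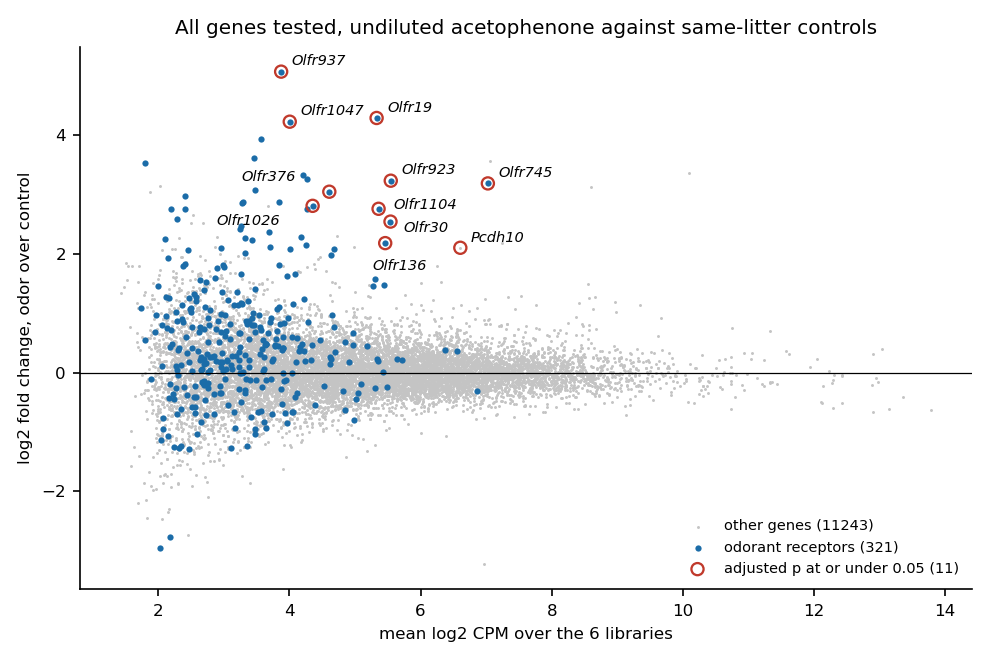
Each point is a gene: the x axis gives its mean log2 CPM over the 6 libraries and the y axis its log2 fold change with undiluted acetophenone (odor over control, litter as a block). Odorant receptors (321) are blue, the other 11243 genes grey, and the 11 genes with an adjusted p at most 0.05 are circled and named; all 11 lie above 0, from 2.11 for Pcdh10 to 5.08 for Olfr937.

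Olfr745 gave the smallest p of all genes. It had 25, 128 and 54 counts in the controls of litters 1, 2 and 3, and 181, 1019 and 666 in the odor libraries of the same litters. Every odor library was above every control. Its normalised level was 25.2 ± 17.97 CPM in the controls and 234 ± 149 CPM with odor (SD, n = 3 each). The fitted log2 change was 3.19 (SE 0.24, edgeR adjusted p = 0.0020), a 9.13-fold difference, with ratios of 7.22, 7.75 and 13.3 in the litters. By counts, not divided by length, Olfr745 held rank 56, 11 and 39 among receptors in the controls, and rank 2, 1 and 1 with odor. Its share of all receptor counts was 0.417%, 0.925% and 0.466% in the controls and 2.35%, 4.77% and 3.72% with odor. The gene lies at chr14:50639388-50643885 on the plus strand (GRCm38). In the controls, and in the odor library of litter 1, the receptor with most counts was Olfr140, at 250, 489 and 297 counts in the controls and 187, 416 and 238 with odor.

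Olfr30 was the receptor with the next smallest p. Its counts were 34, 52 and 22 in the controls and 152, 350 and 141 with odor, and the groups did not overlap. The fitted log2 change was 2.55 (SE 0.26, edgeR adjusted p = 0.0082), and the litters differed little, with ratios of 4.46, 6.55 and 6.91. Olfr30 lies on the minus strand at chr11:58454105-58462270.

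The largest fold changes belonged to 3 receptors that were nearly absent from the controls. Olfr937 had 1, 3 and 2 counts in the controls and 25, 122 and 71 with odor, a log2 fold change of 5.08 (SE 0.52, adjusted p = 0.0082, edgeR). Olfr19 had 5, 6 and 17 against 44, 351 and 209 counts, a log2 fold change of 4.29 (SE 0.46, adjusted p = 0.0090). Olfr1047 had 2, 2 and 9 against 48, 86 and 94 counts, a log2 fold change of 4.23 (SE 0.50, adjusted p = 0.017). In these 3 receptors, chosen by p from the same libraries, each odor library was above all controls, which held for 1.92% of all genes tested. With so few control counts the size of each fold is imprecise, and the litter ratios ran from 8.78 to 57.0 for Olfr19.

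The 5 other receptors rose by log2 fold changes of 2.18 to 3.24. Olfr923 had 19, 35 and 12 counts in the controls and 108, 216 and 322 with odor (log2 3.24, SE 0.43, edgeR adjusted p = 0.031; 0.056 at log2 3.23 with reads of several alignments counted), and its ratio in litter 3, 28.9, was far above the 5.67 and 6.01 of litters 1 and 2. Olfr376 had 2, 16 and 25 counts against 29, 162 and 139 (log2 3.05, SE 0.37, adjusted p = 0.017). Olfr1026 had 5, 18 and 14 against 23, 126 and 124 (log2 2.81, SE 0.39, adjusted p = 0.034). These 3 receptors, likewise chosen by p from the same libraries, showed no overlap between groups. The same held, with odor above, for 32 of the 321 receptors tested and 1.92% of all genes tested. Olfr376 was apart only narrowly, at 10.5 CPM in its lowest odor library and 10.2 CPM in its highest control. In Olfr1104 the groups overlapped, with 8, 42 and 26 counts in the controls and 26, 294 and 241 with odor, although each litter was higher with odor (log2 2.76, SE 0.33, adjusted p = 0.017). Olfr136 overlapped likewise, with 10, 79 and 34 against 29, 335 and 208 counts (log2 2.18, SE 0.29, adjusted p = 0.032). In both, the litter 1 odor library lay at or below a control of another litter. By normalised level, litter 1 was the lowest of the odor libraries for each of the 10 receptors, as for Olfr376 at 10.5 CPM against 54.9 and 60.9. The median litter ratio over the 10 receptors was 6.45 in litter 1, 7.28 in litter 2 and 10.6 in litter 3.

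**Figure D2:**
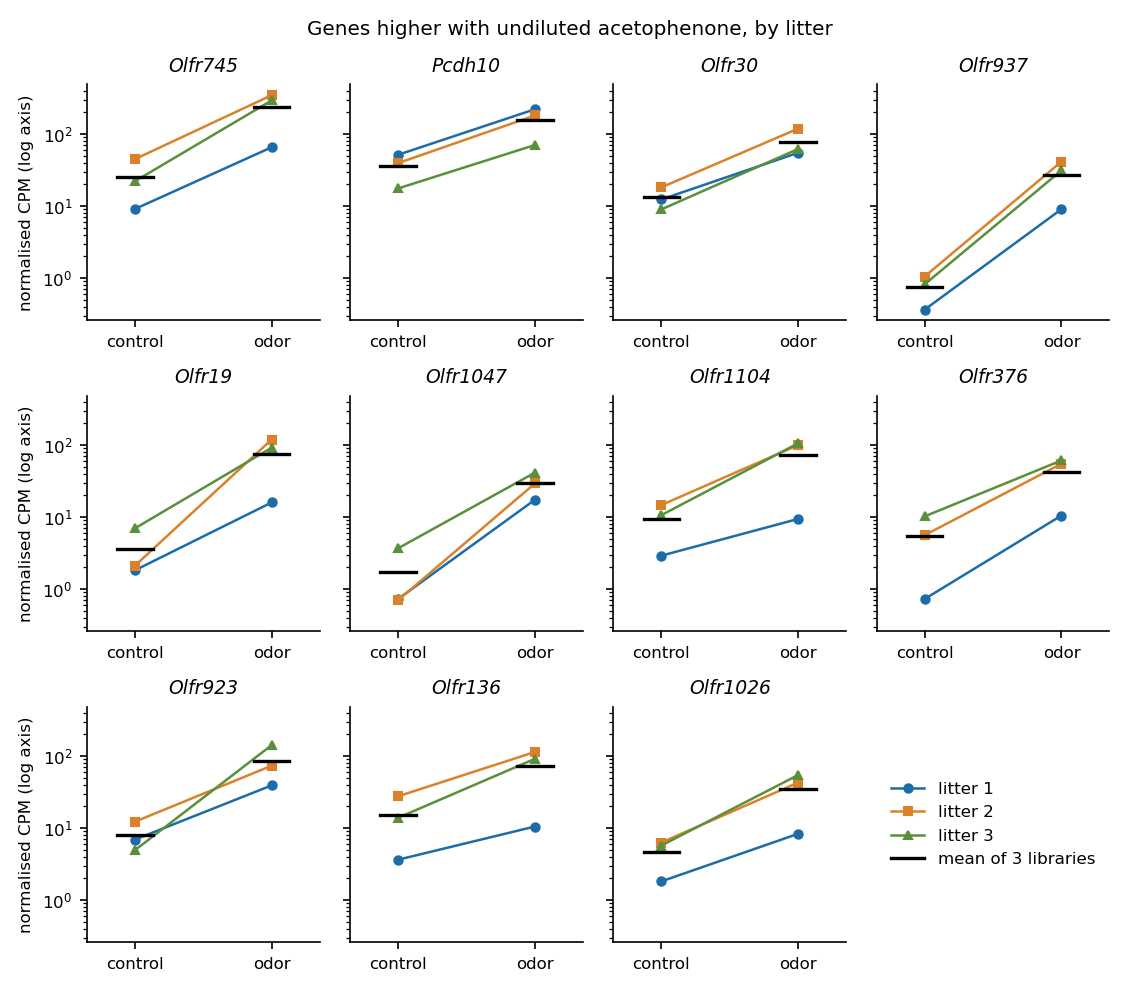
Normalised CPM (log axis) of the 11 genes with an adjusted p at most 0.05, in control and odor libraries joined by litter (blue circles, litter 1; orange squares, litter 2; green triangles, litter 3), with the mean of the 3 libraries as a black bar. Every line rises; the mean of Olfr745 goes from 25.2 to 234 CPM and that of Pcdh10 from 36.04 to 157 CPM.

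Together the 10 receptors took 1.85%, 2.75% and 1.85% of receptor counts in the controls and 8.64%, 14.3% and 12.4% with odor. How far their reads are their own differed. Reads with a single alignment made up 100% of the reads assigned to Olfr745, Olfr30, Olfr1104 and Olfr923, and 99.8% for Olfr19, when reads with several alignments were added in. They made up 30.4% for Olfr376, 49.3% for Olfr136 and 66.8% for Olfr1026. The coding sequence closest to that of Olfr376 was Olfr20, at 94.2% identity, and that closest to Olfr136 was Olfr138, at 95.3%. Unique counts of Olfr20 were 9, 5 and 1 in the controls and 7, 11 and 5 with odor, and those of Olfr138 were 0, 7 and 4 against 1, 14 and 9. Both relatives were under the filter on low counts. For Olfr745 the closest was Olfr749, at 72.1%.

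The next 10 receptors by p did not pass the threshold. Olfr1087 had 1, 2 and 8 counts in the controls and 13, 72 and 78 with odor, a fitted log2 change of 3.94 (SE 0.58, edgeR adjusted p = 0.054). Olfr147 had 0, 13 and 15 against 19, 127 and 107 (log2 3.33, SE 0.50, adjusted p = 0.056). Olfr749 had 3, 23 and 11 against 12, 134 and 111 (log2 2.76, SE 0.42, adjusted p = 0.068), and only 14.4% of its reads aligned once. With reads of several alignments counted, Olfr749 passed (log2 2.69, adjusted p = 0.0177). These 3 sit just outside the threshold, and Olfr1026, at 0.034, just inside it. Adjusted p-values ran from 0.12 to 0.296 for Olfr744, Olfr490, Olfr983, Olfr1463, Olfr1043, Olfr348 and Olfr875, with log2 fold changes from 1.49 for Olfr1463 to 3.62 for Olfr490. Each of these 10 receptors was higher in all 3 litters. They were chosen by p in the higher direction from the same litters, so this is no separate support. Genes higher in all 3 litters made up 14.8% of those tested, and genes lower in all 3 made up 13.4%.

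No receptor passed the test in the lower direction. By p the nearest was Olfr1323, with 11, 14 and 20 counts in the controls and 0, 0 and 8 with odor, a fitted log2 change of -2.96 (SE 1.08, edgeR adjusted p = 0.897). The groups did not overlap there, which held for 2.0% of all genes tested in this direction and for 1.92% in the other. Olfr63 had 7, 19 and 24 counts against 0, 11 and 0 (log2 -2.76, SE 1.12, adjusted p = 0.897). Olfr16 (log2 -1.24), Olfr578 (log2 -0.80) and Olfr1320 (log2 -1.28) followed, all with overlapping groups.

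Over the whole family the receptor share of counts was higher with odor in each litter. It was 0.192% (95% Wilson interval 0.188 to 0.197), 0.484% (0.476 to 0.492) and 0.485% (0.477 to 0.494) in the controls, and 0.272% (0.266 to 0.278), 0.725% (0.715 to 0.734) and 0.820% (0.808 to 0.832) with odor. These intervals cover counting error only. The litter 1 libraries were the lowest in both groups, and the groups overlapped. The means were 0.387 ± 0.169% and 0.605 ± 0.293% (SD, n = 3 each), and the exact 2-sided permutation test gave p = 0.3, where 3 against 3 cannot go below 0.1. Flipping signs within litters gave an exact p of 0.25, the smallest that 3 pairs allow.

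The spread of reads over receptors was also compared. When each library was thinned to 5997 receptor reads, the number of receptors with a read was 573, 638 and 682 in the controls and 601, 618 and 670 with odor (exact permutation p = 1.0). The 20 receptors with most reads in a library held 26.2%, 25.5% and 23.2% of receptor reads in the controls and 24.4%, 27.4% and 24.4% with odor (exact permutation p = 0.7). Both measures overlapped between the groups. Scaling the libraries to their receptor counts, in place of all counts, moved the median log2 fold change of all genes to -0.55, and then 16 genes were higher, 15 of them receptors, and 114 genes lower, none of them a receptor. The absence of lower genes thus holds for the edgeR fit reported above and not for this scaling. Other fits without this scaling gave lower genes too, such as 1 with DESeq2 and 13 with no filter on low counts.

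Of the 1102 receptors, 111 had 0 counts in all 6 libraries, 670 had counts but fell under the filter, and 321 were tested. The filter has the same rule for both groups, but more receptors reached it through the odor libraries alone. Of the receptors tested, 7 were over the level of 3.51 CPM in all 3 odor libraries and in no control. In the reverse direction 0 were so. With that limit, 230 of the 321 had a fold change above 0 and 104 were higher in all 3 litters, against 14.8% of all genes tested. The median log2 fold change of the receptors tested was 0.41, and that of all genes tested 0.01.

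Receptor genes sit in clusters, so the values were also summed by chromosome. Chromosome 9 carries 132 of the receptors placed on GRCm38, of which 24 were tested and 2 (Olfr937 and Olfr923) passed. Of these 24, 23 had a fold change above 0, with a median log2 of 2.09. Over all receptors tested the values were 230 of 321 and 0.41. The 24 are those that reached the filter, so its limit holds for this count and median too. The summed level of all 132, with no filter, was 77.4, 269 and 181 CPM in the controls and 232, 731 and 685 CPM with odor. That is 3.0, 2.72 and 3.78 times the control of the same litter. Left without Olfr937 and Olfr923, the receptors of chromosome 9 took 3.23%, 5.30% and 3.72% of receptor counts in the controls and 6.63%, 8.53% and 6.53% with odor, so each odor library was above each control. Chromosome 9 was singled out after these values were seen.

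Chromosome 7 carries 235 receptors, and 0 of the 76 tested passed. Its summed receptor level was 1.17, 1.13 and 1.41 times the control. Chromosome 2, with 280 receptors, held 3 of those that passed (Olfr1047, Olfr1104 and Olfr1026), and its sum was 1.15, 1.3 and 1.86 times the control. Chromosome 14, the place of Olfr745, showed 1.95, 2.27 and 2.63 times the control over 39 receptors, but without Olfr745 its share of receptor counts was 4.04%, 5.09% and 5.18% in the controls and 4.43%, 4.31% and 5.21% with odor. On the X chromosome the sum over 6 receptors was 0.395, 0.757 and 0.692 times the control.

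**Figure D3:**
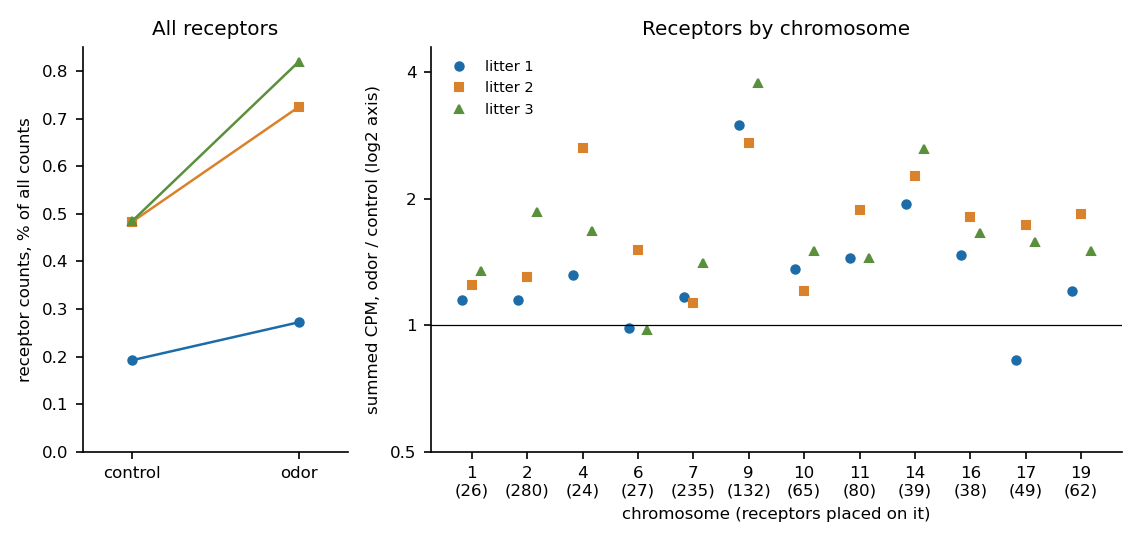
Left, receptor counts as a percent of all counts in control and odor libraries, joined by litter. Right, summed receptor CPM with odor divided by that of the control of the same litter (log2 axis), for chromosomes with at least 20 receptors, whose number is in parentheses; blue circles, orange squares and green triangles are litters 1 to 3. Chromosome 9 has the ratios 3.0, 2.72 and 3.78, and chromosome 7 has 1.17, 1.13 and 1.41.

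Neighbours in a cluster had unlike values. Olfr744, 19.5 kb from Olfr745, had 0, 12 and 20 counts in the controls and 38, 109 and 111 with odor (log2 3.27, SE 0.55, edgeR adjusted p = 0.12). On the same side, 104 kb from Olfr745, Olfr743 had 37, 60 and 88 against 29, 26 and 77 counts (log2 -0.54, SE 0.35, adjusted p = 0.897). Beside Olfr1104 lies Olfr1102, under the filter, with 0, 2 and 1 counts against 1, 40 and 43. Olfr1045, 23.6 kb from Olfr1047, had 9, 12 and 11 against 19, 110 and 39 counts (log2 2.12, SE 0.52, adjusted p = 0.551). Of the other neighbours tested, Olfr1106 near Olfr1104 (log2 -1.07), Olfr332 near Olfr30 (log2 -0.71) and Olfr137 near Olfr136 (log2 -0.46) had a fold change below 0. Olfr742, 97.7 kb from Olfr744 (log2 0.32), and Olfr15, the receptor before Olfr19 at a distance of 12800 kb (log2 0.23), had one above 0. None of these passed the threshold. Many neighbours were under the filter. By sequence, 3 of the 20 receptors with the smallest p in the higher direction had their closest coding relative among the same 20: Olfr749 for Olfr745, Olfr147 for Olfr923 and Olfr1047 for Olfr1087 (83.4% identity). The closest relative of Olfr30, Olfr1395 at 68.9% identity, had 28, 35 and 41 counts in the controls and 28, 35 and 31 with odor.

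The receptors M71 (Olfr151) and M72 (Olfr160) are known from other work to respond to acetophenone. Neither reached the filter. Olfr151 had 0 counts in all 6 libraries, where a count of 0 allows up to 3 counts in a library. Olfr160 had 3, 0 and 1 counts in the controls and 2, 44 and 20 with odor. It was higher in litters 2 and 3 and not in litter 1.

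Pcdh10 was the single gene outside the receptor family that passed. Its product is a protocadherin whose level in olfactory neurons is known to depend on activity. It had 142, 113 and 43 counts in the controls and 611, 533 and 160 with odor, and the groups did not overlap. The fitted log2 change was 2.11 (SE 0.20, edgeR adjusted p = 0.0068), with ratios of 4.29, 4.59 and 4.01 in the litters, a narrower range than that of any of the 10 receptors. The gene lies at chr3:45378398-45435623 on the plus strand. Activity reaches many immediate early promoters through the factor CREB, which binds the cAMP response element. The 250 bases before the RefSeq start (GRCm38.p6) of Pcdh10 and of Fos are shown because both hold the core of this element on the plus strand, in capitals. They span chr3:45378148-45378397 and chr12:85473640-85473889.
Pcdh10: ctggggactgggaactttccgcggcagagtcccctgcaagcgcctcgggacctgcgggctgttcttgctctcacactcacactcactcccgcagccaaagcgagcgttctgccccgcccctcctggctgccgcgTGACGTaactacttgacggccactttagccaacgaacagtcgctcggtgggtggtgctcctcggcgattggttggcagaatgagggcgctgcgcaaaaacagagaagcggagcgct
Fos: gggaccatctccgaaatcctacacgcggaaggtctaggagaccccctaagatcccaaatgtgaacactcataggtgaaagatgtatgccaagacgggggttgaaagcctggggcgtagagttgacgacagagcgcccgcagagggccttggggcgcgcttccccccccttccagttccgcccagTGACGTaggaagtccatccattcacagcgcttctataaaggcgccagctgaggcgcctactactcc
The core TGACGT, or ACGTCA on the other strand, begins 116 bases before the start in Pcdh10 and 66 in Fos. It occurs in 7.51% of all 32851 promoter windows of 300 bases (250 before to 50 after the start), in 11.1% of those of the genes tested and in 14 of the 35 windows of immediate early genes. A match is a description of the letters and shows no binding.

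Fos and Egr1, transcription factors made within minutes of activity, were higher in every litter but did not pass the test. Fos had 57, 33 and 2 counts in the controls and 91, 327 and 17 with odor, a fitted log2 change of 2.12 (SE 0.52, edgeR adjusted p = 0.551). Its litter ratios were 1.59, 9.65 and 9.16, with litter 1 the lowest. Egr1 had 7, 43 and 21 counts against 63, 169 and 30, a log2 fold change of 1.84 (SE 0.46, adjusted p = 0.585), and its ratios were 8.98, 3.83 and 1.54, with litter 3 the lowest. The groups overlapped in both genes. DESeq2 with the litter block put Fos past the threshold (adjusted p = 0.030), as did the edgeR fit without litter 1 (adjusted p = 0.0070).

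Of 35 immediate early genes, 18 were tested and none passed. Of these, 11 had a fold change above 0, 6 were higher in all 3 litters and the median log2 fold change was 0.21, beside 0.01 over all genes tested. Nr4a1, a nuclear receptor induced by activity, had 262, 112 and 179 counts in the controls and 304, 969 and 247 with odor (log2 1.24, SE 0.47, edgeR adjusted p = 0.897). Dusp6, a phosphatase of ERK, had 278, 272 and 291 against 330, 296 and 317. Junb and Jund were read in litter 1 only, at 264 and 311 counts in the control and 240 and 302 with odor. Egr3, Egr4 and Nr4a3 had 0 counts in all libraries.

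Of 11 activity-dependent genes of olfactory neurons, 9 were tested, 7 had a fold change above 0 and only Pcdh10 passed; the median log2 fold change was 0.34. Lrrc3b, a leucine-rich repeat membrane protein, had 610, 492 and 884 counts in the controls and 848, 2228 and 1274 with odor (log2 1.07, SE 0.30, edgeR adjusted p = 0.740). Kirrel3, an adhesion molecule in axon sorting, had 21, 6 and 22 against 76, 36 and 30 (log2 1.58, SE 0.50, adjusted p = 0.840). Its relative Kirrel2 had 1172, 630 and 1130 against 1291, 1665 and 705 counts, higher in litters 1 and 2 and not in litter 3. S100a5, a calcium-binding protein also known to follow activity, had the most counts of the list, 3376, 7847 and 2966 against 3279, 6840 and 3335, and a log2 fold change of -0.0019 (SE 0.16).

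Of the genes that olfactory neurons use whichever receptor they express, none passed. In the transduction cascade, 12 of the 14 genes tested had a fold change above 0, with a median log2 of 0.26. Cnga2, the channel subunit opened by cAMP, had 1352, 1180 and 1212 counts in the controls and 1560, 1868 and 1287 with odor. Stoml3, a stomatin-like protein of olfactory cilia, had 5507, 9065 and 6754 against 6734, 14676 and 6902. Adcy3, the adenylyl cyclase, had 1210, 891 and 14 against 1342, 1535 and 40, with few counts in litter 3 in both groups. For the 9 markers of mature olfactory neurons tested the median was 0.36, and the summed level of all 10 listed was 4092 to 5240 CPM in the controls and 4604 to 7323 CPM with odor. Omp, the olfactory marker protein, had 2737, 325 and 569 counts against 3595, 560 and 546. For 9 markers of immature neurons the median was 0.01.

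No marker of the other cell types of the tissue passed. All 6 ensheathing glia markers tested had a fold change below 0 (median log2 -0.66), 4 of them in all 3 litters (against 13.4% of all genes tested). The summed level of all 8 listed was 219 to 1993 CPM in the controls and 149 to 1800 CPM with odor. Fabp7, a lipid-binding protein of these glia, had 413, 665 and 356 counts against 343, 201 and 309. Of 11 immune markers, 1 had a fold change above 0 (median -0.31), with summed levels of 573 to 870.0 CPM in the controls and 440.2 to 799.6 CPM with odor. For the 8 sustentacular cell markers the median was 0.15, and for the 6 fibroblast markers -0.09. The 6 markers of dorsal and ventral zones all had a fold change above 0 (median 0.33). The part of tissue composition in the receptor results was not tested.

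**Figure D4:**
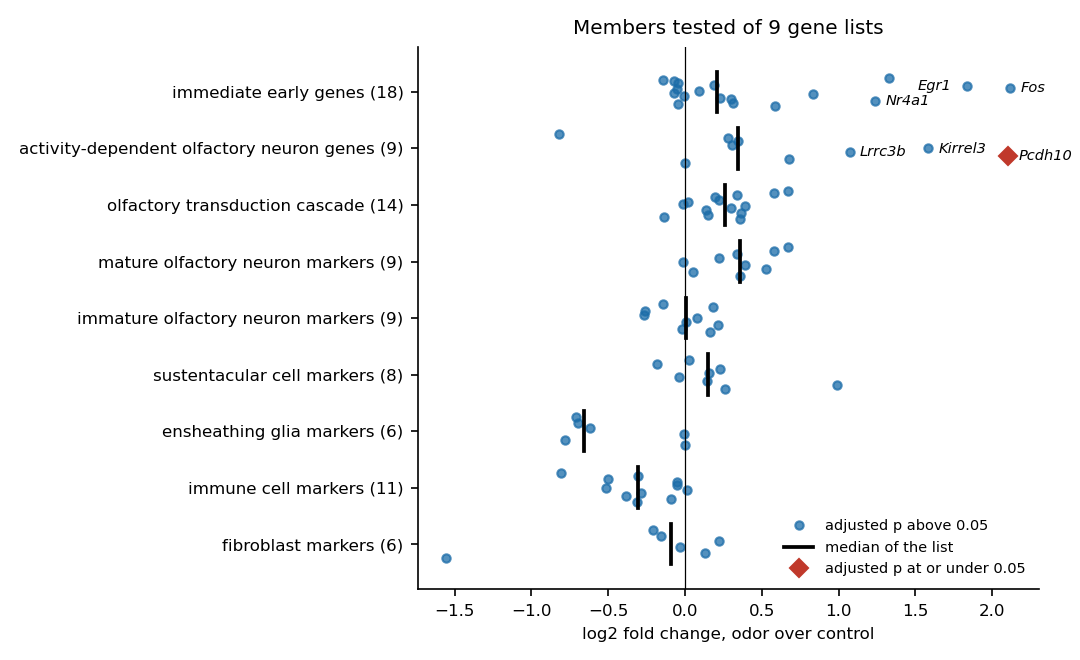
Log2 fold changes (x axis, odor over control) of the members tested of 9 gene lists (rows, with the number tested in parentheses); the black bar is the median of the list and the red diamond the 1 member with an adjusted p at most 0.05, Pcdh10. Medians run from -0.66 for ensheathing glia to 0.36 for mature olfactory neurons.

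Among the genes outside the receptor family, the next after Pcdh10 by p did not pass. Crisp1, a secreted cysteine-rich protein, had 20, 779 and 927 counts in the controls and 29, 2351 and 2190 with odor (log2 1.27, SE 0.21, edgeR adjusted p = 0.12). Hs3st1, a heparan sulfate sulfotransferase, had 170, 194 and 98 against 382, 462 and 169, with no overlap (log2 1.096, SE 0.19, adjusted p = 0.137). 2610203C20Rik (log2 1.22, adjusted p = 0.122) and Cep290, a protein of the ciliary base (log2 1.31, adjusted p = 0.168), had overlapping groups. In the lower direction the nearest was Ifi27l2a, an interferon-inducible gene, with 433, 272 and 213 counts against 187, 173 and 80 (log2 -1.06, SE 0.21, adjusted p = 0.226). Mical1, an actin-oxidising enzyme, had 114, 81 and 130 against 55, 22 and 47 (log2 -1.42, SE 0.30, adjusted p = 0.306). Cpt2, of mitochondrial fatty acid import, Acy1, an aminoacylase, and Sergef followed with log2 fold changes of -0.72, -0.66 and -1.05.

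The 1% dose was given to 3 litters, of which litter 3 also had the undiluted odor and shares its control. Over all 11 acetophenone libraries with litter as a block, 0% of 12873 genes differed between 100% and 1% in the edgeR test, and at an unadjusted p of at most 0.05 the numbers were 453 above and 354 below. In litter 3, Olfr745 had 54 counts in the control, 168 at 1% and 666 at 100%, in libraries of 2389806, 2118099 and 2187268 counts. The difference between the doses was a log2 of 1.496 (SE 0.43, edgeR adjusted p = 0.737). Olfr30 had 22, 51 and 141 counts there (log2 1.798, SE 0.31, adjusted p = 0.680), and Olfr19 had 17, 26 and 209 (log2 3.38, SE 0.76, adjusted p = 0.737). Pcdh10 had 43, 64 and 160 counts there. In litters 4 and 5 Pcdh10 had 970 and 140 counts in the controls and 664 and 295 at 1%, lower at 1% in litter 4. The 970 counts of the litter 4 control, in a library of 4151769, exceed the 611, 533 and 160 of the undiluted odor libraries.

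Olfr923 was the exception in litter 3, with 12 counts in the control, 357 at 1% and 322 at 100%. In litters 4 and 5 it had 23 and 4 counts in the controls and 223 and 114 at 1%. The 100% minus 1% difference was a log2 of -0.58 (SE 0.44, edgeR adjusted p = 0.845). Olfr136, with 34, 137 and 208 counts in litter 3, had a difference of 0.17 (SE 0.54). The doses were compared on 5 litters of which only litter 3 held both. The genes compared by dose were chosen for being higher in the undiluted libraries, that of litter 3 included. That choice itself favours higher counts at 100% than at 1% there.

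TMT was given undiluted to 4 litters with controls of their own, and the difference between the 2 odors was tested as an interaction. It passed for 9 of 13033 genes (0.0691%), and Pcdh10, Fos, Egr1 and the receptors named above were not among them. For Pcdh10 the difference was a log2 of 1.06 (SE 0.38, edgeR adjusted p = 0.333), for Olfr30 0.24 (SE 0.38, adjusted p = 0.859). Against its own controls, undiluted TMT put 605 genes past the threshold in the higher direction (4.64% of those tested), among them Pcdh10 (log2 1.05, SE 0.24, edgeR adjusted p = 0.038) and 6 of the 10 receptors: Olfr745, Olfr30, Olfr1047, Olfr1104, Olfr376 and Olfr136. The fitted log2 changes with TMT ran from 2.32 for Olfr30 (edgeR adjusted p = 0.0025) to 5.42 for Olfr136 (adjusted p = 0.023). Olfr1047 (adjusted p = 0.037) had 0 counts in each TMT control and 21, 0, 0 and 15 with TMT, so no fold is given for it. Receptor counts were lower in that experiment, at 0.0232% to 0.121% of all counts in the TMT controls and 0.0480% to 0.192% with undiluted TMT, against 0.192% to 0.485% in the controls of litters 1 to 3 here. Olfr745 had 0, 1, 0 and 1 counts in the TMT controls and 7, 0, 0 and 92 with undiluted TMT, most of them in litter 4. Olfr136 likewise had 2, 0, 0 and 0 counts against 10, 0, 1 and 202, and Olfr1104 had 1, 0, 0 and 0 against 9, 6, 0 and 82. The receptors as a whole were also higher in litter 4, at 14329 counts (0.172% of all counts) with undiluted TMT against 2067 (0.0325%) in its control. The part of that library in the TMT calls was not tested. Olfr376 had 6, 1, 2 and 0 counts against 59, 87, 11 and 128, higher in every litter. Olfr30 was read in each of these libraries, with 46, 34, 28 and 73 counts in the controls and 123, 156, 70 and 493 with TMT.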

How the data were processed

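Each library is a deposited table of 23481 gene symbols with 20 columns of values and no header. The tools named in the submitters' processing notes are Bowtie and bedtools, with mm10 as the build; their versions, the annotation and any use of strand are not stated in the sources used here. The first deposited column holds whole raw counts, read here as counts of reads with a single alignment; each later column is never lower, and the last holds expected counts. How the authors made the deposited expected counts is read from the values alone: they appear also to take in reads with up to 20 alignments. The reading of the first column likewise comes from the values. The first column was used throughout, and the last, rounded, as an alternative.

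Odorant receptors are symbols Olfr plus a number, without pseudogene symbols. Genes were filtered with filterByExpr (minimum count 10) and tested with edgeR 4.0.16 in R 4.3.3 (TMM, quasi-likelihood F test, litter as a block, 2-sided, Benjamini-Hochberg over all genes, threshold 0.05), checked on simulated data. Standard errors are the log2 fold change over the root of F. The block was used because the labels give the litter. The log2 CPM deviations from the group mean correlated at 0.57 to 0.80 within litters and were negative between litters. Centring on a mean of 3 libraries makes values between litters negative on average once those within are positive, so that sign is no separate evidence. DESeq2 1.42.0 and the other alternatives are in the closing section. Single values per library were compared with exact permutation tests. Intervals are 95% Wilson intervals. Coordinates are those of GRCm38 (GENCODE), which is mm10; promoter windows are RefSeq's. Coding sequences for identities were the longest open reading frame of each transcript, aligned over at least 80% of its length.

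Named genes are every gene past the threshold, the 20 receptors with the smallest p in the higher and 5 in the lower direction, 5 other genes in each direction, the markers Pcdh10, Olfr745, Olfr30, Fos and Egr1, and list members. The comparison, its lists and its named markers were chosen with earlier results of these data known. Promoters of receptors are not shown, since their RefSeq windows lie within the transcribed genes.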

Additional observations from a re-analysis of the deposited data

Results flagged for a closer look

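The response to undiluted acetophenone differed from that to undiluted TMT, each against controls of its own litters, for 9 of 13033 genes by a test of the difference itself (edgeR interaction, litter as a block, adjusted p at most 0.05). All 9 had a lower log2 fold change with acetophenone, and their names were chosen after the values were seen. The largest difference was that of the receptor Olfr96, a log2 of -6.36 (SE 0.75, edgeR adjusted p = 0.0426). Olfr96 had 17, 75 and 53 counts in the acetophenone controls and 9, 75 and 14 with acetophenone, and 2, 1, 2 and 5 in the TMT controls against 113, 78, 34 and 164 with TMT. The 8 others were Psme4, Crot, Grsf1, Kcnj15, Hspa4l, Aldh1a1, Hspa9 and Phf14, with differences from -2.13 for Grsf1 to -2.96 for Crot. Without the litter block 0 genes differed.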

How the results depend on the processing

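Without the litter block, 0 genes and 0 receptors were higher and the 11 fold changes kept their direction, so every call depends on the pairing by litter; 0 genes differed between the odors without the block. With no filter on low counts, 106 genes (42 receptors) were higher and 13 lower; with DESeq2, 35 (21 receptors) and 1. The fit on all 11 acetophenone libraries gave 1 gene lower, Dlk1, lost Olfr1026 (adjusted p = 0.296) and Olfr136 (0.141) and gained Olfr744 (0.0444). Correcting for GC content and length left 8 genes, losing Olfr1026, Olfr1047 and Olfr136, and counting reads with several alignments lost Olfr923 (0.056, with log2 3.23) and gained Olfr749 and Olfr110. Scaling to receptor counts gave 16 genes higher and 114 lower. Leaving out a litter gave 2 to 28 genes higher, 0 to 2 lower (Dlk1 and Gh, both pituitary markers) and 1 to 19 receptors higher. It moved the odor minus control difference in receptors detected at equal reads from -1.21 to between -19.9 and 7.92 (4.28 without litter 3, 7.92 without litter 2), and that in the share of the 20 largest receptors from 0.416 to between -0.33 (without litter 2) and 1.54 percentage points; the cause was not tested. Fitted with 2 litters there are fewer residual degrees of freedom. None of the 37 genes followed through the alternatives changed direction. Other list members were not followed gene by gene, and under the receptor scaling fold changes were followed for receptors alone. The filter kept 670 receptors with counts out of the test; DESeq2 and the fit with no filter tested 991 receptors.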

Other observations

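Secretory genes held some of the highest counts. Obp2a, an odorant-binding protein of nasal glands, made up 3.56% of all counts in the control of litter 1 and 0.782% to 1.09% in the 5 other libraries. Bpifb9b, a secreted protein of the BPI fold family, had 3651, 54 and 6 counts in the controls of litters 1 to 3 and 711, 1284 and 640 with odor, so the direction in litter 1 was opposite to that in litters 2 and 3. The 10 gland and secretory markers tested had a median log2 fold change of -0.01, 5 of them above 0.

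Cytosolic ribosomal protein genes, whose mRNAs are abundant in every cell, had a fold change above 0 in 10 of the 35 tested, with a median log2 of -0.19. Of these 35, 13 were lower in all 3 litters (13.4% of all genes tested were) and 4 higher; the smallest edgeR adjusted p was 0.873. Of 345 other chemoreceptor genes (vomeronasal, trace amine-associated and formyl peptide receptors), 5 were tested and none passed. The summed level of all 345 was 104.5, 163 and 137 CPM in the controls of litters 1 to 3 and 105, 146 and 473 CPM with odor. Only the odor library of litter 3 lay above the range of the controls.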
